A study of Mus musculus with 5 samples.

Results

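NF-kB is a family of transcription factors that act as dimers of Rel proteins. In resting cells IkB proteins hold the dimers in the cytoplasm. Signals from tumor necrosis factor, interleukin 1 and Toll-like receptors pass through the IkB kinase complex, which marks IkB for destruction, and the freed dimers then switch on their targets. Among these targets are the genes of several family members and of the inhibitors that end the response, so transcript levels of the inhibitors are a usual readout of the pathway. The genes described here were 10 genes of this circuit, picked by name. They comprised 4 factors (Nfkb1, Nfkb2, Rela and Relb), the IkB family genes Nfkbia, Nfkbiz and Bcl3, the deubiquitinase gene Tnfaip3, and the target genes Birc3 and Icam1. All 10 were found among the 23771 genes of the deposited table of lung cancer cells, and all 10 reached a share of 10% of cells in 1 or both libraries, as did 10201 genes in all.

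The cells came from lungs of female BALB/c mice with metastases of 4T1, a mouse mammary carcinoma line, here carrying the surface reporter CD90.1. From 6 weeks of age, mice received 200 µL by vein of either tumor-secreted factors (TSF), collected from pieces of 4T1 tumors kept in medium, or control medium (CM) that had held no tumor, 3 times per week for 3 weeks. All mice were then given 25000 4T1 cells by vein, and the libraries compared here were made at day 16, at 11 weeks of age. Each condition was 1 library that pooled the lungs of 3 mice, so no difference has a replicate check, no test was made, and differences were called by size alone. Cancer cells, as the authors annotated them, numbered 139 of 5197 cells in the TSF library and 29 of 3835 cells in the CM library.

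The annotation was set against marker genes. Krt8, an epithelial keratin, was seen in 137 of 139 TSF cells and in 29 of 29 CM cells, whereas Epcam, an epithelial adhesion gene, was seen in 95 and 8 cells. None of 14 leukocyte markers reached 10% of cells in either library, and their summed level was 1.22 CP10k in TSF cells and 0.00958 in CM cells, where 13 of the 14 were at 0. CP10k is the number of UMIs (unique molecules) of a gene per 10000 UMIs of the cell, averaged over all cells of the library. Lyz2 and Nkg7 were at 0 in both libraries, Ptprc was seen in 4 TSF cells, and S100a9 in 4 TSF cells. Of 6 endothelial, 7 stromal and 7 lung epithelial markers, 2, 2 and 0 reached 10% of cells in either library. These were Egfl7 (31.7% of TSF and 17.2% of CM cells), Cdh5 (4.32% and 10.3%), Pdgfra (45.3% and 44.8%) and Dcn (11.5% and 6.90%). The median depth was 26615 UMIs in TSF cells and 27679 in CM cells. The 2 libraries shared 31 cell barcodes, none of them between cancer cells.

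The letters below show where a kB consensus, a 10-base pattern of sites that NF-kB dimers bind, occurs in promoters of the genes described next. The pattern was GGG, then A or G, any base, A or T, 2 pyrimidines (C or T), then CC. Both strands of the RefSeq promoter windows (GRCm38.p6, 250 bases before to 50 after a start) were searched, and 7 of the 10 genes had a window. A match was found for 4 of these 7 genes, and for 5.14% of all 27025 genes with a window (4.51% of 32851 windows). Capitals mark the matching bases, and each stretch is read 5′ to 3′ on the strand of the gene.

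Nfkbia: gactggcttGGAAATTCCCcgcgcctga
Tnfaip3, first match: actcacgcgGGGACACCCCggggcggga
Tnfaip3, second match: atttccatcGGAAATCCCCctgttggca
Nfkb2, farther match: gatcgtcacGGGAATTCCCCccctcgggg
Nfkb2, nearer match: gggccgaaaGGGGCTTTCCcggctggag
Bcl3: cggcggcagGGGAAGTCCCgctgcccgg

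The Nfkbia stretch lies at chr12:55492658-55492685 on the minus strand, with its match 29 to 20 bases before the start and outside the gene in GENCODE M21. The Tnfaip3 stretches lie at chr10:19015517-19015544 and chr10:19015404-19015431 on the minus strand. Both matches precede this RefSeq start, the second by 12 to 3 bases, and both fall in an intron of the longer GENCODE gene model. The Nfkb2 stretches lie at chr19:46304689-46304717 and chr19:46304717-46304744 on the plus strand, before a RefSeq start and in an exon of 1 GENCODE transcript. The farther one holds 2 overlapping matches, shifted by 1 base, and Nfkb2 has further matches at downstream starts. The Bcl3 stretch lies at chr7:19822735-19822762 on the minus strand, with its match 2 to 11 bases after the start, in an exon. The windows of Icam1, Birc3 and Rela held no match, which says only that this exact pattern is not in those 300 bases. Sites that depart from the pattern were not searched for. Matches are a description of the letters, and binding was not measured.

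The comparison asked how the circuit was set in cancer cells that grew in TSF-treated lungs, relative to lungs given control medium. Nfkb2 was the only one of the 10 genes past 1.5-fold, and it was lower in TSF cells. Rela, which encodes the p65 activating subunit, was lower by nearly as much. The IkB family genes Nfkbia, Nfkbiz and Bcl3 and the deubiquitinase gene Tnfaip3 differed by at most 0.33 on the log2 scale in either direction. Folds are given as log2 ratios after 1 CP10k was added to both means, a scale that understates differences of low genes. On it, 6 of the 10 genes were below 0 and 4 above 0, with a median of -0.12. Over all 10201 genes in at least 10% of cells the median was -0.03, and 59.7% of genes were below 0.

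The count of 1 gene in 10 past 1.5-fold lower stood against 1.95% of all genes, and 0 genes past 1.5-fold higher against 0.755%. Low genes cannot move far on this scale. Among the 2263 genes with a mean of 0.5 to 2 CP10k over both libraries, a range that holds Nfkb2, 4.90% were past 1.5-fold lower. Without a pseudocount, 4 of the 10 genes (Nfkb2, Rela, Relb and Tnfaip3) were past 1.5-fold lower and 1 (Icam1) higher, where the background was 29.9% and 15.4% of 10121 genes with a UMI in both libraries. Those counts are near the background, so the counts as such set the 10 genes little apart from other genes.

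**Figure D1:**
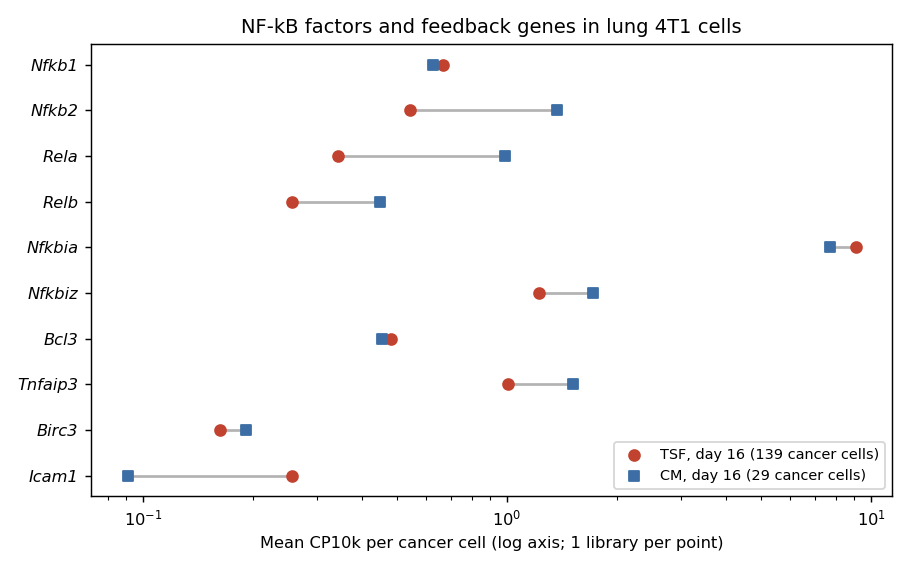
Mean CP10k (log axis) of each gene in the cancer cells of the TSF library (circles, 139 cells) and the CM library (squares, 29 cells), 1 library per point and no error bar because there are no replicates. Nfkb2 lies at 0.543 in TSF and 1.37 in CM cells, whereas Nfkb1 and Bcl3 lie nearly at the same level in both.

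Among the factors, Nfkb2 (ENSMUSG00000025225, GRCm38 chromosome 19, 46304320 to 46312385, plus strand) encodes p100, the precursor of p52 and the substrate of the noncanonical branch. Its mean level was 0.543 CP10k in TSF cells and 1.37 CP10k in CM cells, a log2 ratio of -0.62. The ratio was 0.396 without a pseudocount. Nearly equal shares of cells had a UMI, 69.1% of TSF cells (96 of 139 cells, exact 95% interval 60.7 to 76.6%) and 72.4% of CM cells (21 of 29 cells, interval 52.8 to 87.3%). The difference thus lay in the level of the cells with a UMI, which was 0.786 CP10k in TSF and 1.89 CP10k in CM cells.

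Rela (ENSMUSG00000024927, chromosome 19, 5637483 to 5648130, plus strand) lay just inside the 1.5-fold line, with a log2 ratio of -0.57 where the line is at 0.58 in size. Its level was 0.343 CP10k in TSF cells and 0.989 CP10k in CM cells. Without a pseudocount the ratio of Rela was 0.347, below the 0.396 of Nfkb2. It was the only one of the 10 genes whose share of cells differed by 20 percentage points or more. A UMI was seen in 56.1% of TSF cells (78 cells, interval 47.5 to 64.5%) and in 79.3% of CM cells (23 cells, interval 60.3 to 92.0%). The difference was -23.2 points (Newcombe interval -36.9 to -3.78), and 3.33% of all genes were at least 20 points lower in TSF. No gene of the 10 was 20 points higher, against 3.09% of all genes. In the cells with a UMI, Rela stood at 0.611 CP10k in TSF and 1.25 CP10k in CM cells, so both the share and the level were lower.

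Nfkb1 (ENSMUSG00000028163, chromosome 3, 135584655 to 135691547, minus strand), which encodes p105, the precursor of p50, was nearly level. It had 0.668 CP10k in TSF and 0.626 CP10k in CM cells, a log2 ratio of 0.04. Its share was 70.5% in TSF and 72.4% in CM cells, a difference of -1.91 points whose interval (-17.1 to 17.5) leaves room for differences of either sign. The gene model Gm43430 overlaps Nfkb1 on the same strand. Relb (ENSMUSG00000002983, chromosome 7, 19606217 to 19629438, minus strand), the partner of p52, moved apart in its measures. Its mean was lower in TSF cells, at 0.256 against 0.446 CP10k (log2 ratio -0.20), while its share of cells was higher, at 46.0% (64 cells) against 34.5% (10 cells). Relb in cells with a UMI stood at 0.555 CP10k in TSF and 1.29 CP10k in CM cells. Summed over the 4 factors, the level was 1.81 CP10k in TSF and 3.43 CP10k in CM cells. Most of that gap came from Nfkb2 and Rela, whose CM means may rest in part on the shallowest CM cell described below.

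**Figure D2:**
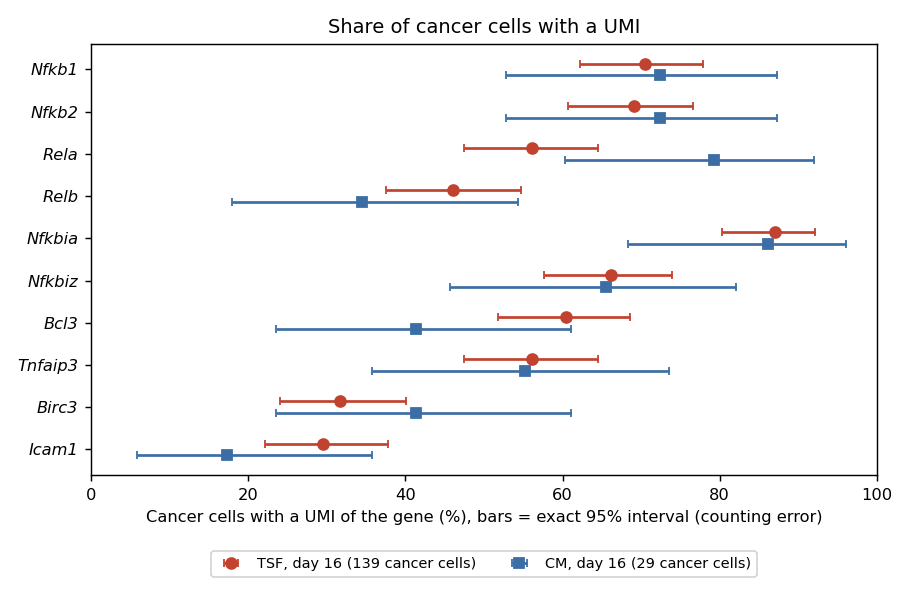
Percent of cancer cells with a UMI of each gene in the TSF library (circles, 139 cells) and the CM library (squares, 29 cells), with exact Clopper-Pearson 95% intervals that cover counting error only. The intervals of the 2 libraries overlap for every gene, and Rela (56.1% and 79.3%) shows the widest gap.

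Among the IkB family genes, Nfkbia (ENSMUSG00000021025, chromosome 12, 55489410 to 55492647, minus strand) encodes IkB-alpha, the inhibitor that NF-kB itself induces to close the loop. It stood at 9.09 CP10k in TSF cells and 7.70 CP10k in CM cells, a log2 ratio of 0.21. It was seen in 87.1% of TSF cells (121 cells, interval 80.3 to 92.1%) and 86.2% of CM cells (25 cells, interval 68.3 to 96.1%). In cells with a UMI the level was 10.4 CP10k in TSF and 8.93 CP10k in CM cells. Neither measure passed its size rule. The genes most like Nfkbia over level and share in both libraries were mt-Nd4 (distance 0.426), Sec61g (0.506) and Rpl31 (0.506), by Euclidean distance over 4 values. With 2 libraries this likeness says little beyond a like level.

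Nfkbiz (ENSMUSG00000035356, chromosome 16, 55811375 to 55838899, minus strand) encodes IkB-zeta, a nuclear cofactor of secondary targets. It had 1.22 CP10k in TSF and 1.72 CP10k in CM cells, a log2 ratio of -0.29, with shares of 66.2% (92 cells) and 65.5% (19 cells). Bcl3 (ENSMUSG00000053175, chromosome 7, 19808462 to 19822770, minus strand) encodes a nuclear IkB protein that binds p50 and p52 homodimers. Its mean was level, at 0.478 and 0.453 CP10k (log2 ratio 0.02), while its share was 60.4% in TSF (84 cells, interval 51.8 to 68.6%) and 41.4% in CM cells (12 cells, interval 23.5 to 61.1%). That difference of 19.1 points (interval -0.665 to 36.7) lies just inside the 20-point line. More TSF cells thus held a UMI of Bcl3, at a lower level in those cells, 0.792 against 1.10 CP10k.

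Tnfaip3 (ENSMUSG00000019850, chromosome 10, 19000910 to 19015657, minus strand) encodes A20, a ubiquitin-editing enzyme that shuts off signaling upstream of the IkB kinase. It stood at 1.00 CP10k in TSF and 1.51 CP10k in CM cells, a log2 ratio of -0.33. The shares were alike, at 56.1% (78 cells) and 55.2% (16 cells), with a difference of 0.943 points (interval -17.5 to 20.3). In the cells with a UMI, Tnfaip3 had 1.79 CP10k in TSF and 2.74 CP10k in CM cells.

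The 2 target genes went different ways. Birc3 (ENSMUSG00000032000, chromosome 9, 7848699 to 7873186, minus strand) encodes the cIAP2 ubiquitin ligase, which protects cells from death downstream of the TNF receptor. It had 0.163 CP10k in TSF and 0.192 CP10k in CM cells, a log2 ratio of -0.04, with shares of 31.7% (44 cells) and 41.4% (12 cells). Icam1 (ENSMUSG00000037405, chromosome 9, 21015985 to 21028817, plus strand) encodes the adhesion molecule bound by leukocyte integrins. It had 0.257 CP10k in TSF and 0.0906 CP10k in CM cells, a log2 ratio of 0.20 and a ratio of 2.83 without a pseudocount. Icam1 was seen in 29.5% of TSF cells (41 cells, interval 22.1 to 37.8%) and 17.2% of CM cells (5 cells, interval 5.85 to 35.8%), a difference of 12.3 points (interval -6.39 to 24.8).

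UMIs are whole numbers and the depth of each cell is given, so for genes in few cells the UMIs behind a mean can be solved. The CM level of Icam1 rested on 5 UMIs, 1 in each of 5 cells (exact Poisson 95% interval 1.62 to 11.7 UMIs). The CM level of Birc3 rested on 14 UMIs in 12 cells (interval 7.65 to 23.5), of which 11 cells held 1 and a single cell held 3.

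**Figure D3:**
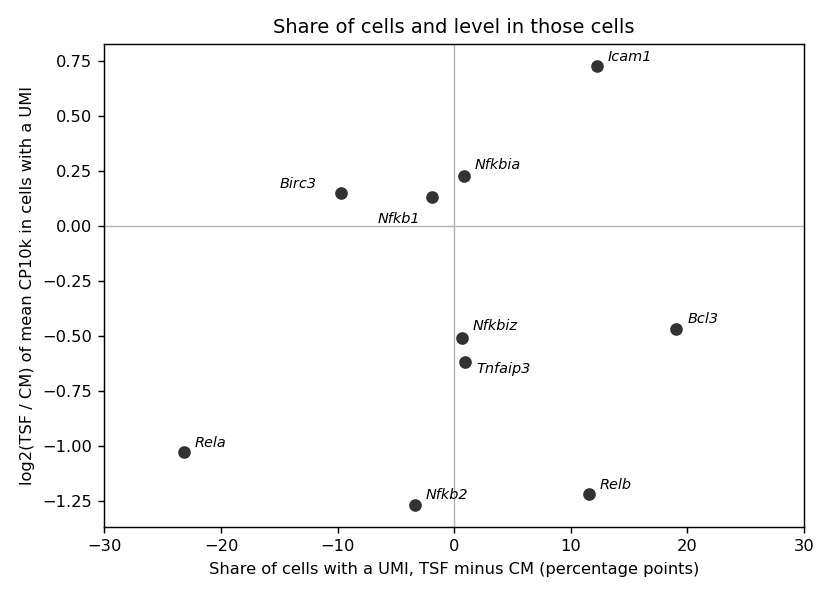
Difference in the share of cells with a UMI (TSF minus CM, percentage points) against log2 of the TSF to CM ratio of mean CP10k in the cells with a UMI, 1 point per gene. Rela and Nfkb2 lie lower on both axes, Relb, Bcl3, Nfkbiz and Tnfaip3 had a higher share but a lower level, Nfkb1 and Birc3 the opposite, and Nfkbia and Icam1 lie higher on both.

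Splitting the mean showed where the measures part. In 6 of the 10 genes the level of cells with a UMI was lower in TSF, as in 63.1% of 10121 genes seen in both libraries. In 6 of the 10 genes the share of cells was higher in TSF, and over all genes 50.8% were lower. Of the 6 genes with a lower mean, 3 had a higher share. Such a split depends on how UMIs are spread over cells. The CM library held 1 cell with only 973 UMIs, in which a single UMI adds 0.354 CP10k to the CM mean, while the next cell had 5962 UMIs. In the TSF library 1 UMI of the shallowest cell, with 909 UMIs, adds 0.0791 CP10k.

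The shallowest CM cell bears on the called gene. The means and depths allow at most 2 UMIs of Nfkb2 in the 973-UMI cell. Without it the CM mean of Nfkb2 would lie between 0.686 and 1.42 CP10k, for a log2 ratio of -0.13 to -0.65, so the 1.5-fold call can be lost but TSF stays lower. At most 1 UMI of Rela fits there, which leaves a CM mean of 0.657 to 1.02 CP10k, a log2 ratio of -0.30 to -0.59. Up to 3 UMIs of Nfkbiz or of Tnfaip3 fit, and for these genes the direction without the cell was not settled, with log2 ratios from 0.40 to -0.32 and from 0.45 to -0.36. The cell held no UMI of Nfkb1, Relb, Bcl3, Birc3 or Icam1. For Nfkbia the CM mean without it is at most 7.98 CP10k, below the TSF mean. In all, 8 of the 10 genes kept their direction over the whole range.

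**Figure D4:**
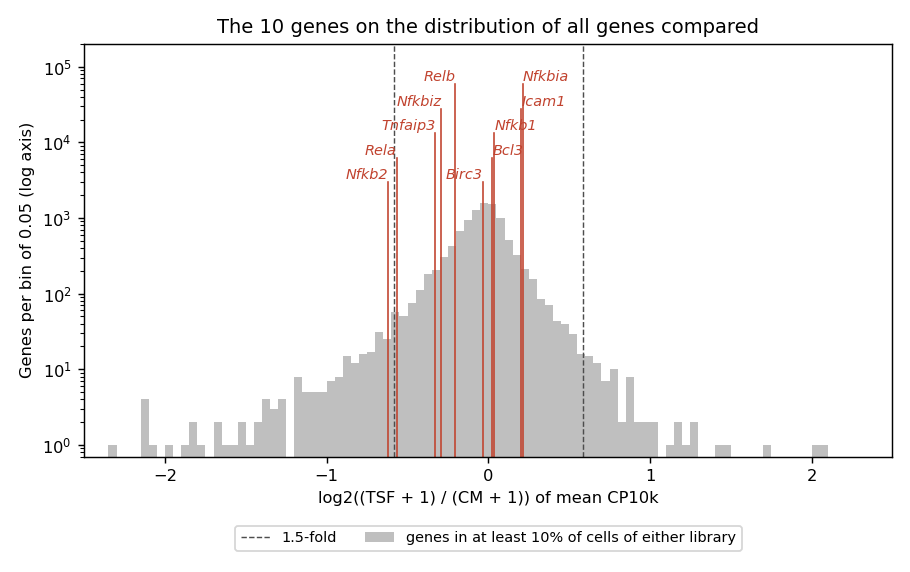
Number of genes per bin of the log2 ratio of TSF to CM (grey, log axis) for the 10201 genes in at least 10% of cells, with the 10 genes as vertical lines whose heights only separate the names, and the 1.5-fold lines dashed. Nfkb2 (-0.62) lies past the lower line, Rela (-0.57) just inside it, and Nfkbia (0.21) is the highest of the 10.

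Ranked among the 10201 genes by log2 ratio, Nfkb2 stood at the 1.69th percentile and Rela at the 2.18th. Tnfaip3 was at percentile 7.37, Nfkbiz at 8.98 and Relb at 15.4. Birc3, Bcl3 and Nfkb1 lay between 48.7 and 70.8, and Icam1 and Nfkbia at 93.1 and 93.6.

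The rest of the pathway was read from lists by role, and of 95 genes 76 were in at least 10% of cells. Of these, 6 (7.89%) were past 1.5-fold lower and 3 (3.95%) higher, with a median log2 ratio of -0.09, beside 1.95%, 0.755% and -0.03 over all genes. By share of cells, 12 of the 76 were past 1.5-fold lower and 8 higher, where 12.7% and 11.3% of all genes were. Those counts lie near the background. The signaling parts held none of the called genes apart from 1 receptor. None of 4 other factors and IkBs, 14 kinases, 12 adaptors and ubiquitin ligases, 10 negative regulators or 2 ligands was past 1.5-fold in either direction. Most kinases and adaptors here are too low to reach 1.5-fold once 1 CP10k is added, so the absence of calls says little about them. Without a pseudocount, 36 of 75 other pathway genes were past 1.5-fold lower and 12 higher, against 29.9% and 15.4% of all genes. Rel, the fifth Rel protein, had 0.167 CP10k in TSF and 0.267 CP10k in CM cells (log2 ratio -0.12). The kinase genes Chuk, Ikbkb and the scaffold gene Ikbkg had log2 ratios of -0.10, -0.19 and -0.04.

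Of the receptors, Tnfrsf12a, which binds TWEAK, was 2.31 CP10k in TSF and 5.64 CP10k in CM cells, a log2 ratio of -1.01. Tnfrsf1a, the main receptor of TNF, was 0.722 and 1.26 CP10k, a log2 ratio of -0.39. The cancer cells held few UMIs of the ligands. Tnf was seen in 8 of 139 TSF cells and 1 of 29 CM cells. Il1b was seen in 5 TSF cells and listed at 0 in CM cells, and 0 of 29 is compatible with a true share of up to 10.3%. Il1b is also made by neutrophils, and their genes S100a8 and S100a9 had 0.300 and 0.685 CP10k in TSF cells and 0 in CM cells. Their part in the Il1b value was not tested.

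The other known targets differed in both directions, with 5 of 24 (20.8%) past 1.5-fold lower and 3 (12.5%) higher, against the same 1.95% and 0.755%. Among all genes with a mean of 0.5 to 2 CP10k these shares were 4.90% and 1.02%. Higher in TSF cells were Csf3, the granulocyte growth factor (5.39 against 1.63 CP10k, log2 ratio 1.28), Cxcl2, a neutrophil attractant (1.73 against 0.182 CP10k, 1.21), and Lcn2, an iron-binding secreted protein (10.4 against 5.75 CP10k, 0.76). Lower were Irf1, an interferon-induced transcription factor (1.39 against 6.64 CP10k, log2 ratio -1.68), and Cxcl10, an interferon-induced T-cell attractant (0.258 against 1.87 CP10k, -1.19). Also lower were Zfp36, which destabilizes inflammatory mRNAs (3.74 against 9.22 CP10k, -1.11), Plau, the urokinase gene (0.668 against 1.77 CP10k, -0.73), and Ptgs2, which encodes COX-2 (0.935 against 2.20 CP10k, -0.72). By share of cells, only Lcn2 (log2 ratio 0.94) and Cxcl10 (-1.55) of these called targets were past 1.5-fold.

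**Figure D5:**
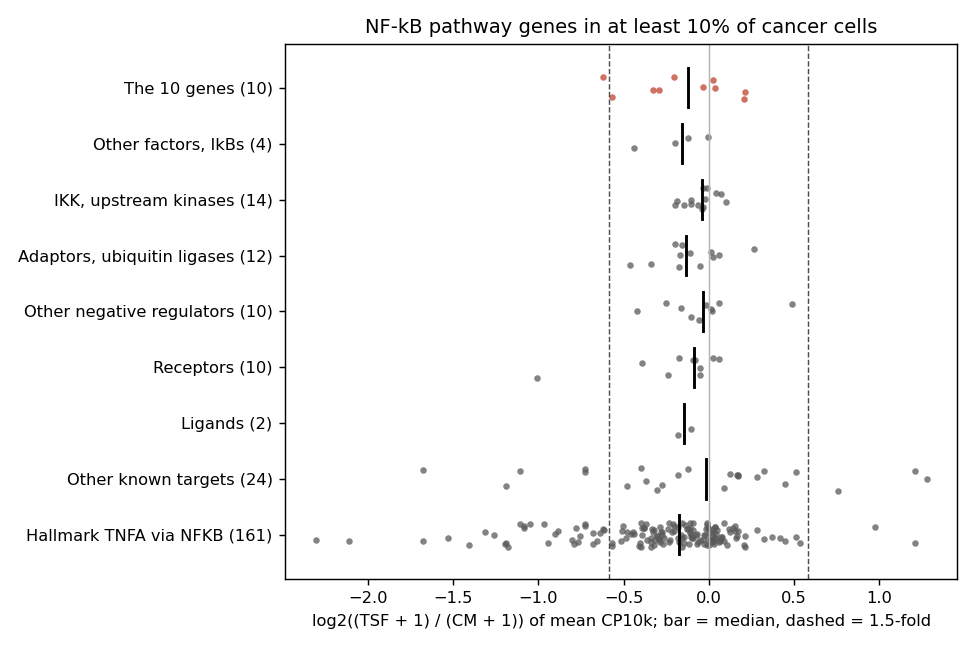
The log2 ratio of TSF to CM for each gene in at least 10% of cancer cells, by role (points spread vertically at random, bars for the median, dashed lines at 1.5-fold, numbers of genes in brackets). Kinases, adaptors and negative regulators sit inside the dashed lines, while known targets and the Hallmark set reach past them, the Hallmark set mostly to the lower side. Most kinases and adaptors are low genes, which cannot move far on this scale.

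The deposited Hallmark set of TNF signaling via NF-kB, which holds 9 of the 10 genes, leaned lower in TSF cells by mean level, while by share of cells its counts lay near the background. Of its 161 genes in at least 10% of cells, 31 (19.3%) were past 1.5-fold lower and 2 (1.24%) higher, beside 1.95% and 0.755% of all genes, with a median of -0.17. By share of cells, 22 of them were past 1.5-fold lower and 16 higher, where 12.7% and 11.3% of all genes were, and Jun had a log2 ratio of 0.039 and Plau, of the targets above, 0.0021. The 5 lowest were Atf3 (log2 ratio -2.31), Egr1 (-2.11), Irf1 (-1.68), Fosl1 (-1.53) and Jun (-1.41), of which Atf3, Egr1, Fosl1 and Jun are stress-induced or early-response factors. The 5 highest were Cxcl2 (1.21), Cebpd (0.98), Sphk1 (0.54), Ccl5 (0.51) and Cxcl5 (0.45). Of these, only Cxcl2 and Cebpd were past 1.5-fold, and they were seen in 5 and 4 CM cells. Ccl5 was seen in 15 TSF cells and listed at 0 in CM cells, and Cxcl5 was seen in 23 TSF cells and 1 CM cell. Ccl5 and Cxcl5 reached 10% of cells only in the TSF library.

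Other programs were read beside the set, from lists chosen with earlier results of these data known. Of 12 immediate-early genes, 11 belong to the Hallmark set, and 6 were past 1.5-fold lower. These 6 are among the 31 lower Hallmark genes, so they are not a separate result. Of 12 interferon-gamma response genes 11 were lower, with a summed level of 5.77 CP10k in TSF and 42.4 CP10k in CM cells. Of 5 heat shock genes 3 were lower and 1 higher. Over all genes 1.95% were past 1.5-fold lower and 0.755% higher. By share of cells, the lower genes of these 3 lists ranged from Junb (log2 ratio 0.050) to Gbp6 (-2.55). When the members described above and the listed 12 immediate-early and 12 interferon genes were left out, 22 of 139 Hallmark genes (15.8%) were lower and 2 higher. The median was -0.15. These lists are short, and the 22 still include genes of like kind, such as the early-response gene Fosl1 (-1.53) and the interferon-induced Cxcl10 (-1.19). The remainder is thus not free of such genes. The part of these programs in the values of the 10 genes was not tested.

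The cancer cells also differed in their subclusters. Of the authors' fine clusters of cancer cells, cluster 131 held 79.3% of CM cells (23 cells, interval 60.3 to 92.0%) and 38.8% of TSF cells (54 cells, interval 30.7 to 47.5%), and cluster 120 held the rest. Cells with under 10000 UMIs made up 27.6% of CM cells (8 cells) and 10.1% of TSF cells (14 cells). The part of either in the differences of Nfkb2 and Rela was not tested, since values of single cells were not analysed here.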

How the data were processed

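Cells were profiled with the 10x Genomics 5' kit (v1.1). The authors mapped reads with Cell Ranger to mm10 (GRCm38.p6) plus the reporter sequence, removed ambient RNA from the counts with an adapted SoupX, and kept cells with at least 800 UMIs. Their deposited gene table gives, for cancer cells of both day-16 libraries, mean CP10k, the number of cells with a UMI and the percent of such cells. A deposited table of cells holds UMI counts per cell, the percent of mitochondrial UMIs, the class and the fine cluster. Its 2 libraries outside the samples described, and the authors' own fold changes, p-values, q-values and enrichment scores, were not used. The authors found no need to remove doublets from the cancer cells, which they identified by CD90.1, and no caller was run here.

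Ratios used log2(CP10k + 1), and genes in at least 10% of cells of either library formed the background. The size rules were 1.5-fold and 20 percentage points. With 1 library per group, no p-value was computed. Intervals (Clopper-Pearson and Newcombe, 95%) cover counting error only. The level of cells with a UMI is the mean divided by the share of cells. Shares could not be thinned to equal depth, so median depths stand beside them. UMI numbers were solved from the mean and the cell depths: all 1373 and 1686 genes seen in 1 CM or TSF cell came out whole within 1e-09 UMIs, and 148 of 150 genes in 3 CM cells had a single solution. The search was tested on simulated data. Genes were positioned by identifier in GENCODE M21, and promoter windows came from RefSeq.

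Named were all 10 genes, the other pathway genes past 1.5-fold with Rel, Chuk, Ikbkb, Ikbkg, Tnfrsf1a, Tnf and Il1b, the 5 highest and lowest of the Hallmark set, and the 3 genes nearest to Nfkbia. Markers and Gm43430 were named beside them. The genes and lists were chosen with earlier results of these data known. Computations used Python 3.11.15 with scipy 1.17.1, pandas 2.3.3 and numpy 2.4.6, and figures matplotlib 3.10.9.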

Additional observations from a re-analysis of the deposited data

How the results depend on the processing

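The pseudocount moved the counts most. With 0.1 CP10k, 3 of the 10 genes were past 1.5-fold lower and 1 higher, and with none 4 and 1. For the other pathway genes these counts were 26 lower and 9 higher, then 36 and 12, and for the Hallmark set 67 and 13, then 83 and 18. The background of all genes moved likewise, to 17.3% lower and 7.33% higher with 0.1 CP10k. Leaving ribosomal protein and mitochondrial genes out of the total moved the median log2 ratio of all genes by 0.01, and those of single genes up or down. It put 2 of the 10 genes past 1.5-fold lower (Rela at -0.62), 5 other pathway genes higher and 4 Hallmark genes higher. Centring on the median gene changed no count by over 1.5 times. By the share of cells, 0 of the 10 genes were lower and 1 (Icam1) higher, 12 other pathway genes were lower and 8 higher, and 22 Hallmark genes were lower and 16 higher, where the background was 12.7% lower and 11.3% higher. Under a rule of 2-fold, 0 of the 10 genes were lower, and the Hallmark set had 14 lower and 1 higher, with a background of 0.529% and 0.127%. Under a rule of 10 points, 3 of the 10 shares were higher, with a background of 15.9%. Of the called genes named, Jun (0.039) and Plau (0.0021) turned sign by the share of cells, and Nfkb2 kept its sign in each setting. Under both other scalings every one of the 10 genes kept its sign. Cells with under 5000 UMIs made up 3.45% of CM and 5.76% of TSF cancer cells. Leaving out the shallowest CM cancer cell was added after the data were seen, and its 5 fixed log2 ratios stayed inside 1.5-fold. No paired analysis was possible because each group had 1 library, and no library could be left out. With 29 CM cells, a gene in no cell may be in up to 10.3% of such cells.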
